A study of Mus musculus with 36 samples.

Results

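Oxidative phosphorylation subunit genes encode the proteins of the mitochondrial respiratory chain (complexes I to IV) and of ATP synthase (complex V). The members were chosen by gene symbol in the annotation of the Mouse Transcriptome Array: the Nduf a, b, c, s and v series, Sdh a to d, Uqcr, Cox4 to Cox8 and Atp5. A member is 1 transcript cluster, the gene-level unit of this array. The rule found 84 clusters with a single such symbol, and for the 3 genes with several clusters (Atp5d, Atp5g2 and Atp5l) the cluster with the highest mean over 18 arrays was kept. This gave 80 members of 65956 clusters outside the control probe sets. By symbol, 32 belonged to complex I, 4 to complex II, 8 to complex III, 18 to complex IV and 18 to complex V.

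Total RNA of cortex, hippocampus and amygdala was measured in male C57BL/6 mice about 8 weeks old. The mice had received intraperitoneal injections 2 times a day for 10 days, either of INTRALIPID, a lipid emulsion used as vehicle (Ctrl), or of diazepam (DZP), a benzodiazepine that the labels give as 5 mg/ml, while the study's methods give the dose per kg of body weight. Each of the 6 groups, 2 treatments in 3 regions, had 3 arrays, so n = 3 throughout. Per the study's methods, mice of both treatments were anaesthetised with medetomidine, midazolam and butorphanol before tissue was taken, and midazolam is itself a benzodiazepine. Each array holds RNA of all cell types of a punched piece of tissue, and fewer cells of a type and less RNA per cell cannot be told apart. The labels do not say which arrays of different regions came from the same mouse, and p-values measure the spread between these arrays.

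Electrons from NADH enter the chain at complex I and those from succinate at complex II. They pass through ubiquinone and complex III to cytochrome c, and complex IV hands them to oxygen. Complexes I, III and IV pump protons, and complex V uses the gradient to make ATP, most of which neurons spend on ion pumping and synaptic transmission. Most subunits have 1 nuclear gene, but several subunits of complex IV and the c subunit of complex V have more. Cox6a2, Cox7a1 and Cox8b are heart and skeletal muscle forms, Cox4i2 is known from lung and vascular cells, and Cox6b2, Cox7b2 and Cox8c are known from testis. The subunits encoded by mitochondrial DNA are outside the symbol rule and are not analysed here.

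Values are log2 signal intensity, where a difference of 1 is a doubling. Levels were not compared between genes, since probes differ in brightness. The mean signal intensity of a member lay between 3.81 and 16.003 with a median of 10.01, and 78 of the 80 were at or above the median level of all clusters. Over the 18 arrays, 73 members were brighter on every array than that array's average negative control, and 4 on none. The median pooled within-group standard deviation (SD) was 0.113 for the members, from 0.056 to 0.187, and 0.148 for all clusters. Array medians ran from 5.86 to 6.03, and arrays of a group correlated at r = 0.993 or above. Against cortex, the median log2 difference was 3.16 in Ctrl mice and 2.83 in DZP mice for the hippocampus list in hippocampus, and 1.65 and 1.55 for the amygdala list in amygdala. A list of 7 striatum genes was also higher in amygdala than in cortex, by 1.06 and 2.17.

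Some symbols of the rule are not subunits of the complex they are named for. Ndufa4 is now assigned to complex IV, Cox7a2l is a factor that joins complexes III and IV into supercomplexes, and Atp5l2 is a pseudogene in RefSeq. The IDs of the Atp5g2 and Atp5l clusters place them on chromosomes 7 and 5, while RefSeq gives the genes on chromosomes 15 and 9.

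The promoters of the 3 genes for the c subunit of ATP synthase are shown because these genes encode the same mature protein behind different leader peptides, and because each of the 3 was called between 2 regions in 1 of the treatments, as given further on. Each window runs from 250 bases before to 50 bases after the start site, 5′ to 3′ on the gene's strand, from RefSeq on GRCm38.p6. Capitals mark matches to GCGCA, any base and GCGC, the motif of NRF-1 (nuclear respiratory factor 1), or to TCAAGGTCA, the motif of the estrogen-related receptor ERRα, on either strand. The windows are Atp5g1, chr11:96075582-96075881, Atp5g2, chr15:102670998-102671297, and Atp5g3, chr2:73911277-73911576, all on the minus strand.
Atp5g1: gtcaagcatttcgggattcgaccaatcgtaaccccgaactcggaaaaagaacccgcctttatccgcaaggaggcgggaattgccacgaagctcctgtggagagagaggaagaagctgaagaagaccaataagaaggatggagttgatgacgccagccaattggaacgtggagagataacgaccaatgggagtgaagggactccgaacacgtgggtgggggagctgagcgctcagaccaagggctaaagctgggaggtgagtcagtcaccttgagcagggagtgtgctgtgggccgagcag
Atp5g2: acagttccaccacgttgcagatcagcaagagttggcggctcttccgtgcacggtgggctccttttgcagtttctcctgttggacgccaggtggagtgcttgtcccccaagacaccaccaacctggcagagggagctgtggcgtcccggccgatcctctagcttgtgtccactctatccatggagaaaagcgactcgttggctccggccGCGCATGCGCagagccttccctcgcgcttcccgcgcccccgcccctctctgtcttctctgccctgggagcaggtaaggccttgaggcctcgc
Atp5g3: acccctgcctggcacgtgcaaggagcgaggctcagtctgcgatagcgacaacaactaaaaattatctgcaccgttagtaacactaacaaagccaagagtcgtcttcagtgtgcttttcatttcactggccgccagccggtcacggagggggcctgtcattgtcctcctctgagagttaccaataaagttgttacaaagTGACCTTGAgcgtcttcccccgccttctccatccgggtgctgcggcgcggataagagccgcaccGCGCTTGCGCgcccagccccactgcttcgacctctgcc
The Atp5g1 window held neither motif. The Atp5g2 window held 1 NRF-1 match, from -42 to -33 relative to the start site. The Atp5g3 window held an NRF-1 match from 12 to 21 and an ERRα match from -52 to -44. This window lies wholly inside the gene, which RefSeq gives at chr2:73908447-73912464, so its start site is an internal one.

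Promoter windows were given for 65 members. The other 15 were Atp5a1, Atp5l2, Atp5mpl, Cox4i1, Cox4i2, Cox6a2, Cox6c, Cox8c, Ndufa2, Ndufb9, Ndufs1, Sdhc, Uqcrb, Uqcrc2 and Uqcrq. The NRF-1 motif was found in 14 of the 65 members (21.5%), against 5.19% of 27025 genes with a window. CCGGAAGT, the motif of GABPA, another regulator of respiratory genes, was found in 5 members (7.69%, against 4.31%). AA, any base and ATGGCGGC, the motif of YY1, was found in 3 (4.62%, against 1.17%) and the ERRα motif in 2 (3.08%, against 0.466%). No motif of the 4 was found in 44 members (67.7%, against 89.6%). Both strands were searched without mismatch. The median GC content was 57.5% over the members' windows and 52.7% over all windows, and the part of base composition in these shares was not tested. A match is a run of letters and not a measured binding site.

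The first comparison asked whether DZP changed the members within a region. None of the 80 was called in cortex, hippocampus or amygdala (limma over all clusters, Benjamini-Hochberg adjusted p under 0.05), where 0.0364%, 0.0728% and 0% of all clusters were called. At an unadjusted p under 0.05, 4 members passed in cortex, 4 in hippocampus and 2 in amygdala, against 7.83%, 11.2% and 9.4% of all clusters. By the criteria of the study's methods, an unadjusted p under 0.05 with a fold change of at least 1.5, the count was also 0 in each region. No member estimate reached 1.5-fold, so the fold criterion alone gave this count whatever the p. The share of all clusters that met these criteria is not given here. The median log2 difference, DZP minus Ctrl, was 0.02 in cortex, -0.01 in hippocampus and -0.02 in amygdala, beside -0.00, -0.01 and 0.03 for all clusters. The DZP mean was higher for 47, 38 and 26 of the 80 members. These counts, and those by complex below, are for the deposited scaling only and were not tested. The mean of the array medians was 5.96 in Ctrl amygdala and 6.00 in DZP amygdala, so a count of directions there depends on the scaling.

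The precision of these differences was alike for most members. The margin of the 95% interval on either side of the estimate had a median of 0.203 on the log2 scale, a factor of 1.15, and it ran from 0.137 to 0.304. For all 80 members in each region the interval lay within 1.5-fold in either direction. The lowest bound was -0.57 in cortex, -0.55 in hippocampus and -0.57 in amygdala, and the highest was 0.50, 0.47 and 0.46. Changes within these bounds were not excluded with 3 arrays per group.

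**Figure D1:**
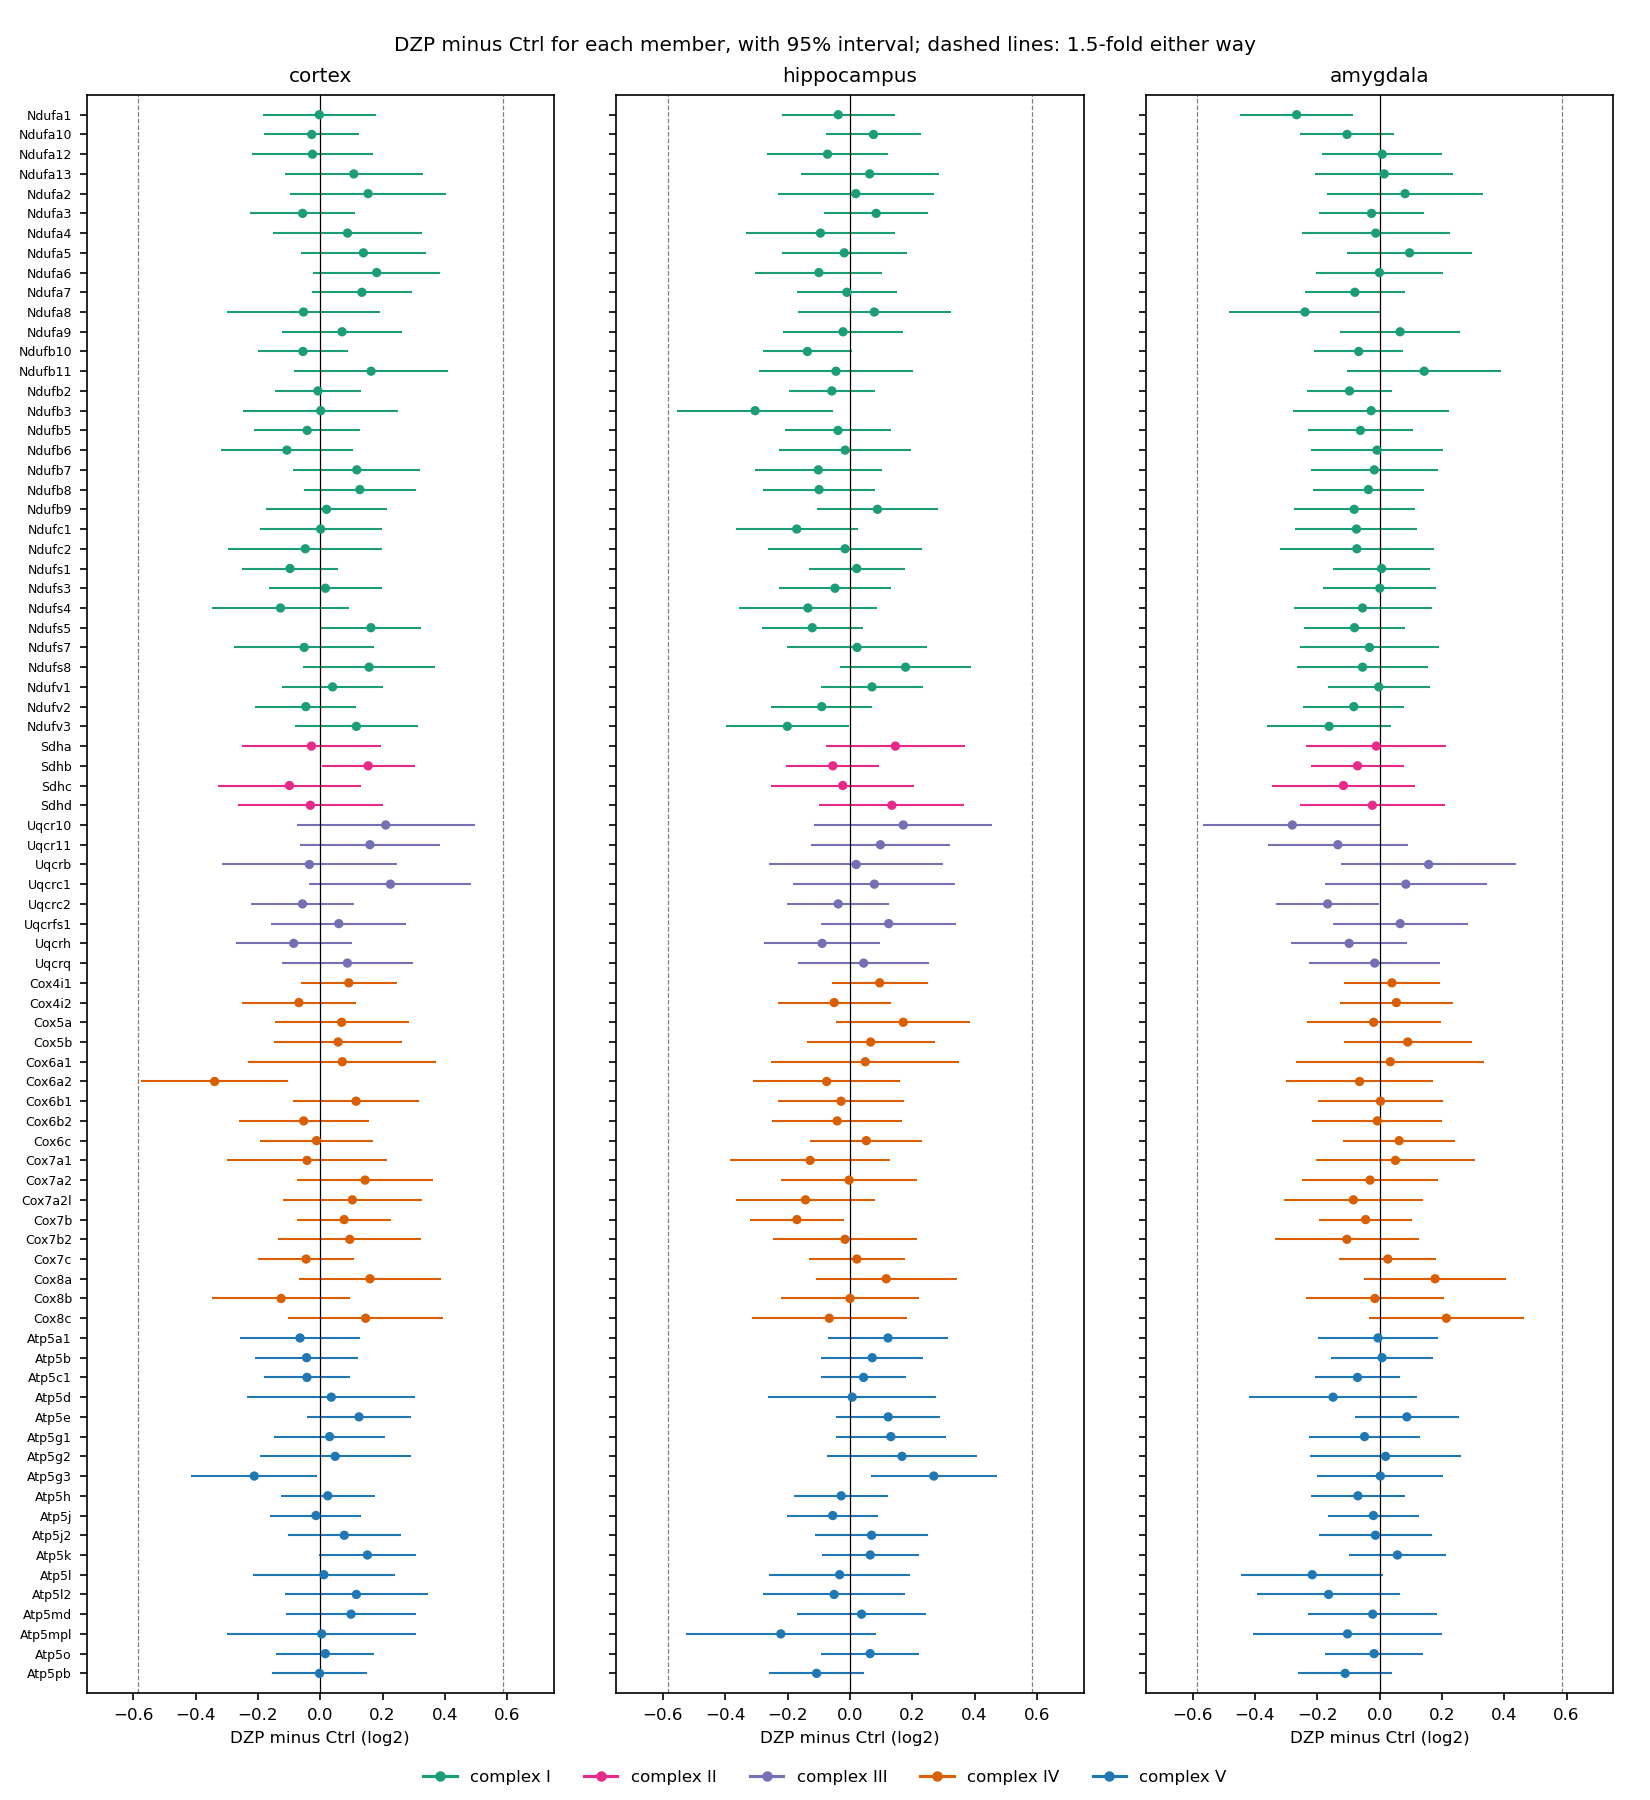
DZP minus Ctrl signal intensity (log2, x axis) of each of the 80 members in cortex, hippocampus and amygdala, as points with 95% intervals from limma (n = 3 per group). Colours give the complex by symbol and dashed lines mark 1.5-fold in either direction, within which all 80 intervals lie in each region.

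In complex I the median DZP difference was 0.01 in cortex, -0.04 in hippocampus and -0.03 in amygdala, with 18, 10 and 8 of 32 members higher. In complex II it was -0.03, 0.06 and -0.05, and in complex III 0.07, 0.06 and -0.06. In complex IV it was 0.07, -0.01 and 0.01, and in complex V 0.02, 0.05 and -0.02. No complex held a call.

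In cortex the lowest estimate was that of Cox6a2, the muscle form of subunit VIa of complex IV. Its signal was 7.84, 8.04 and 8.04 in Ctrl mice and 7.66, 7.75 and 7.49 in DZP mice. All DZP arrays were below all Ctrl arrays, but the difference was not called (-0.34 ± 0.11, SE, adjusted p = 0.45, limma). Outside muscle Cox6a2 is known from parvalbumin interneurons of mouse brain, and the mean of a list of 8 GABAergic interneuron genes was also lower, from 10.72 to 10.87 on Ctrl cortex arrays and from 10.48 to 10.54 on DZP cortex arrays. In cortex 3 of 15 marker lists had array means that did not overlap between the treatments. The other lists were endothelium, from 8.42 to 8.48 in Ctrl and from 8.51 to 8.58 in DZP cortex, and hippocampus, from 7.24 to 7.33 and from 7.35 to 7.44. Of 7 pathway lists, cytosolic ribosomal proteins lay higher with DZP, from 9.43 to 9.49 and from 9.54 to 9.61, and the citric acid cycle list lower, from 11.45 to 11.51 and from 11.33 to 11.43. Of the GABAergic list, Sst gave -1.001 (adjusted p = 0.11, limma), Gad1 -0.45 and Pvalb -0.29, and none of the 8 was called. The part of these lists in the Cox6a2 value was not tested. Atp5g3 was 11.22, 11.44 and 11.21 in Ctrl mice and 11.06, 11.10 and 11.08 in DZP mice, again without overlap and without a call (-0.21 ± 0.09, SE, adjusted p = 0.61, limma). Ndufs4, an accessory subunit of complex I, gave -0.13. The highest estimates were those of Uqcrc1, a core subunit of complex III (0.23), Uqcr10, a small subunit of the same complex (0.21), and Ndufa6 of complex I (0.18). Uqcrc1 was 11.87, 12.14 and 12.18 in Ctrl cortex and 12.37, 12.43 and 12.07 in DZP cortex, and these values overlapped.

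In hippocampus the lowest estimate was that of Ndufb3, an accessory subunit in the membrane arm of complex I. It was 9.63, 9.35 and 9.31 in Ctrl mice and 9.30, 9.10 and 8.97 in DZP mice. The groups were separated by a narrow margin and the difference was not called (-0.30 ± 0.12, SE, adjusted p = 0.33, limma). Atp5mpl, a small protein of ATP synthase, gave -0.22 and Ndufv3, of the NADH-oxidising module of complex I, -0.20. Atp5g3 had the highest estimate, from 11.03, 11.08 and 11.15 in Ctrl mice to 11.52, 11.43 and 11.13 in DZP mice (0.27 ± 0.09, SE, adjusted p = 0.28, limma). DZP replicate 3 lay within the Ctrl range, and without it the difference was 0.39 (adjusted p = 0.088, limma). Ndufs8, an iron-sulfur subunit of complex I (0.18), and Uqcr10 (0.17) followed. The choroid plexus list varied widely among these arrays, with means from 6.01 to 10.15 on Ctrl hippocampus arrays and from 6.07 to 9.14 on DZP hippocampus arrays, where cortex arrays lay between 5.73 and 5.83. Its part in the hippocampus values, also in those between regions, was not tested. In hippocampus 1 of 15 marker lists had array means that did not overlap between the treatments. This was striatum, from 7.2025 to 7.2692 in Ctrl and from 7.1634 to 7.1998 in DZP hippocampus. Of 7 pathway lists, 0 were so separated. The part of the striatum list in the members' values was not tested either.

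In amygdala the lowest estimate was that of Uqcr10, from 8.66, 9.01 and 8.45 in Ctrl mice to 8.50, 8.22 and 8.55 in DZP mice (-0.28 ± 0.13, SE, adjusted p = 0.54, limma). The groups overlapped. Ndufa1, a small subunit of complex I, was 8.76, 8.89 and 8.62 in Ctrl mice and 8.49, 8.43 and 8.55 in DZP mice, without overlap and without a call (-0.27 ± 0.09, SE, adjusted p = 0.38, limma). Ndufa8 of complex I gave -0.24. The highest estimates were those of Cox8c (0.21), whose signal was below the negative control mean on all 18 arrays, Cox8a, the common form of subunit VIII (0.18), and Uqcrb of complex III (0.16). Markers of other tissue differed between the same arrays. The DZP minus Ctrl median was 0.94 over 7 striatum genes, 0.46 over 6 oligodendrocyte genes and -1.46 over 5 choroid plexus genes. The mean of the choroid plexus list ran from 6.06 to 10.0 on Ctrl amygdala arrays and from 6.06 to 6.25 on DZP amygdala arrays, and that of the striatum list from 8.30 to 9.55 and from 9.26 to 10.5. The mean of the amygdala list itself ran from 8.51 to 8.87 on Ctrl arrays and from 8.32 to 8.40 on DZP arrays, without overlap. In all, 3 of 15 marker lists were so separated. The others were hippocampus, from 8.38 to 8.64 and from 8.27 to 8.35, and the 1 blood gene, from 5.78 to 5.92 and from 6.01 to 6.07. Of 7 pathway lists, 2 lay lower with DZP. These were assembly factors, from 8.212 to 8.318 and from 8.167 to 8.210, and the citric acid cycle list, from 11.36 to 11.48 and from 11.28 to 11.35. Their part in the members' values was not tested.

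DZP arrays all lay above Ctrl arrays for 8 members in cortex, 1 in hippocampus and 1 in amygdala, against 7.22%, 6.45% and 8.16% of all clusters. They all lay below for 3, 6 and 4 members, against 7.34%, 9.69% and 4.91% of all clusters. Over the 3 regions, 60 members (75%) overlapped everywhere, 10 (12.5%) were lower in 1 region only, 7 (8.75%) were higher in 1 region only and 3 (3.75%) were higher in 1 region and lower in another. The same shares of all clusters were 62.3%, 15.9%, 16.1% and 2.23%. These 3 members were Cox7b of complex IV and Ndufs5 and Ndufv3 of complex I, all higher in cortex and lower in hippocampus, as 0.705% of all clusters were. Ndufs5 was 7.70, 7.69 and 7.62 in Ctrl cortex and 7.73, 7.86 and 7.89 in DZP cortex, and 7.90, 7.79 and 7.88 in Ctrl hippocampus and 7.74, 7.73 and 7.74 in DZP hippocampus. No member was separated in the same direction in all 3 regions, as 0.155% of all clusters were.

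A difference of the DZP effect between regions was tested as an interaction. No member was called (limma), beside 0.00455%, 0% and 0.0121% of all clusters for hippocampus against cortex, amygdala against cortex and amygdala against hippocampus. At an unadjusted p under 0.05, 4, 4 and 1 members passed, against 8.96%, 7.39% and 9.31% of all clusters. Atp5g3, lower with DZP in cortex and higher in hippocampus by its estimates, gave 0.48 ± 0.13, SE, adjusted p = 0.27, limma. Uqcr10 gave -0.49 ± 0.19, SE, adjusted p = 0.61, limma for amygdala against cortex. Ndufs5 gave -0.28 ± 0.11, SE, adjusted p = 0.44, limma for hippocampus against cortex.

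Averaged over the 3 regions by treatment and replicate number, which the labels do not say to be a mouse, again no member was called, and neither was any cluster (0%, limma). At an unadjusted p under 0.05, 2 members passed, against 9.73% of all clusters. These were Cox6a2, with a log2 difference of -0.16 ± 0.05 (SE, adjusted p = 0.38, limma), and Cox8a, with 0.15 ± 0.06 (SE, adjusted p = 0.51, limma).

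The second comparison asked how the members differed between regions, separately in Ctrl mice and in DZP mice. Few did. In Ctrl mice 3 members were called between hippocampus and cortex, 4 between amygdala and cortex and 2 between amygdala and hippocampus (limma, adjusted p under 0.05), where 15%, 15.5% and 10.3% of all clusters were called. The counts in DZP mice were 2, 5 and 2, against 12.3%, 20.4% and 10.7%. At an unadjusted p under 0.05, 9, 16 and 9 members passed in Ctrl mice, against 25.6%, 26% and 21.6% of all clusters, and 10, 18 and 7 in DZP mice, against 23.4%, 33.7% and 23.4%. In all, 13 members (16.2%) were called in at least 1 of the 6 comparisons and 67 in none, where 34.7% of all clusters were called in at least 1.

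Clusters of about the same brightness as the members were called more often than all clusters. Of 5256 clusters with 1 symbol and a mean between 8.54 and 11.48, the range of the middle 40 members, 35%, 35.9% and 25.2% were called in the 3 Ctrl comparisons in the same order, and of the 40 members 2, 0 and 1. In DZP mice these shares were 29.5%, 37% and 21%, and 1, 3 and 0 members.

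The split of the calls into higher and lower depended on how the arrays were scaled. For amygdala against cortex in Ctrl mice, 3 of the calls were higher and 1 lower with the deposited values (all clusters 8.87% and 6.65%), 0 and 1 after centring each array on its median (6.48% and 7.25%), and 1 and 3 after quantile normalisation (7.35% and 8.04%). In DZP mice they were 3 and 2 (13.1% and 7.27%), then 0 and 9 (6.66% and 11.1%), then 2 and 7 (8.83% and 10.3%). The split of all clusters thus moved with the scaling too. Between hippocampus and cortex the split in Ctrl mice was 1 and 2 (8.13% and 6.89%), then 0 and 2 (5.8% and 7.42%), then 2 and 2 (7.25% and 7.62%), and in DZP mice 1 and 1 (6.57% and 5.69%), then 1 and 1 (5.77% and 5.43%), then 1 and 2 (6.45% and 6.39%). Between amygdala and hippocampus it was 2 and 0 in Ctrl mice (5.77% and 4.57%), then 1 and 0 (5.28% and 4.12%), then 2 and 0 (5.54% and 5.35%), and in DZP mice 1 and 1 (6.25% and 4.46%), then 0 and 2 when centred (3.72% and 6.65%) and 0 and 2 by quantiles (5.14% and 5.98%). Centring moved each amygdala minus cortex difference of the DZP mice by -0.11. No member called with the deposited values changed sign under any alternative.

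Arrays that did not overlap between regions gave a wider count. In Ctrl mice, hippocampus lay above cortex on all arrays for 19 members and below for 5 (all clusters 19.9% and 13.1%), amygdala above cortex for 16 and below for 4 (18% and 12.6%), and amygdala above hippocampus for 8 and below for 1 (13.6% and 13.5%). In DZP mice these counts were 7 and 8 (15.6% and 12%), 15 and 11 (25.4% and 12.3%), and 3 and 7 (16.3% and 8.98%).

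**Figure D2:**
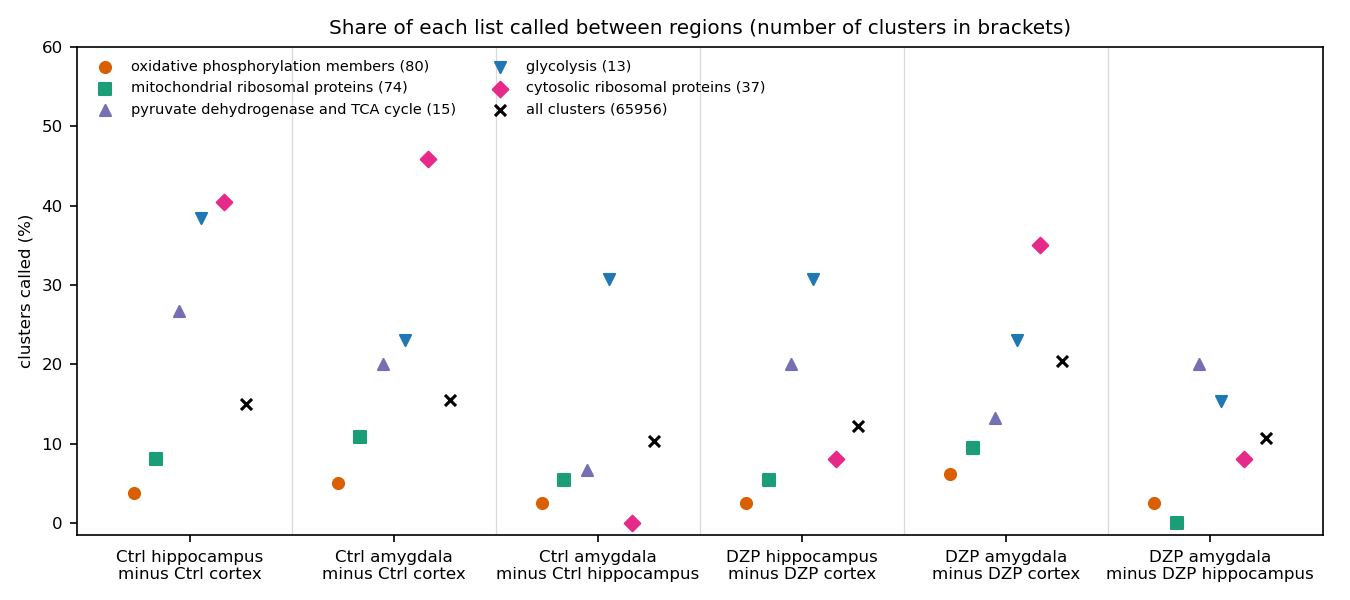
Share of clusters called between regions (%, limma, adjusted p under 0.05, y axis) in the 6 comparisons, for the 80 members, 4 other gene lists and all clusters, with the number of clusters in brackets. The members lie between 2.5% and 6.25%, below all clusters in each comparison.

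Cox6a2 differed most. RefSeq gives it at chr7:128205435-128206366 on GRCm38.p6. In Ctrl mice its signal was 7.84, 8.04 and 8.04 in cortex, 7.07, 6.96 and 7.03 in hippocampus and 7.44, 7.34 and 7.50 in amygdala. The 3 regions did not overlap, with cortex highest and hippocampus lowest. Hippocampus minus cortex was -0.95 ± 0.11, SE, adjusted p = 1.2e-05, limma. Amygdala minus cortex was -0.55 ± 0.11, SE, adjusted p = 0.0023, limma. Amygdala minus hippocampus was 0.41 ± 0.11, SE, adjusted p = 0.026, limma.

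In DZP mice, whose arrays are separate from those of Ctrl mice, Cox6a2 was 7.66, 7.75 and 7.49 in cortex, 6.87, 6.76 and 7.21 in hippocampus and 7.52, 7.30 and 7.27 in amygdala. The means kept the same order, but cortex and amygdala overlapped. The average negative control lay between 6.71 and 6.80 on the 18 arrays, and DZP hippocampus replicate 2 was below that of its own array. Signals this near background understate a difference, so no fold is given. Hippocampus minus cortex was -0.69 ± 0.11, SE, adjusted p = 3.6e-04, limma. Amygdala minus hippocampus was 0.42 ± 0.11, SE, adjusted p = 0.023, limma. Amygdala minus cortex was not called (-0.27 ± 0.11, SE, adjusted p = 0.095, limma). Each call was recomputed under 9 alternatives, namely array centring, quantile normalisation, the mean of all clusters of the gene and the omission of each of the 6 arrays compared. Of the called members only Atp5g2 has several clusters. For the others the mean of all clusters repeats the values used, so that alternative could not lose their calls. The difference between hippocampus and cortex was called under 9 and 9 of the 9 in Ctrl and DZP mice, that between amygdala and cortex in Ctrl mice under 9, and that between amygdala and hippocampus under 4 and 4. The test of the study's methods, which takes the spread of a gene from the compared arrays alone, gave fewer calls. With Benjamini-Hochberg adjustment it kept 2 of the 18 calls between regions, those of Cox6a2 in Ctrl mice between hippocampus and cortex and between amygdala and cortex. With its own criteria it kept 2, those of Cox6a2 between hippocampus and cortex in each treatment. The other 16 calls had estimates under 1.5-fold, so the fold criterion excluded them whatever their p. No call of another member was kept by either form of that test. With limma on only the arrays compared, 10 of the 18 were kept. Under the 9 alternatives the call between amygdala and hippocampus was lost in Ctrl mice without hippocampus replicate 1, 2 or 3 or amygdala replicate 1 or 3. It was lost in DZP mice with array centring or quantile normalisation and without hippocampus replicate 1 or 2 or amygdala replicate 1.

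Pvalb, the parvalbumin gene, had another order of regions. It was 9.11, 9.22 and 9.41 in Ctrl cortex, 7.80, 7.73 and 7.96 in Ctrl hippocampus and 6.61, 6.77 and 6.95 in Ctrl amygdala. In DZP mice it was 9.12, 8.80 and 8.94, 7.51, 7.42 and 7.61 and 6.97, 6.79 and 6.91 in the same order. Cortex was highest for both genes, while amygdala was lowest for Pvalb and hippocampus for Cox6a2. The list of 8 GABAergic interneuron genes had a median log2 difference of -0.46 for hippocampus against cortex and 0.30 for amygdala against cortex in Ctrl mice, and -0.35 and 0.38 in DZP mice. The part of interneurons in the Cox6a2 values was not tested.

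Cox6a1, the common form of subunit VIa, showed no such separation. It was 14.68, 15.13 and 14.99 in Ctrl cortex, 15.13, 14.58 and 14.99 in Ctrl hippocampus and 14.87, 15.13 and 14.94 in Ctrl amygdala, and all regions overlapped. Hippocampus minus cortex was -0.03 in Ctrl mice (95% interval -0.33 to 0.27) and -0.05 in DZP mice (-0.35 to 0.25).

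**Figure D3:**
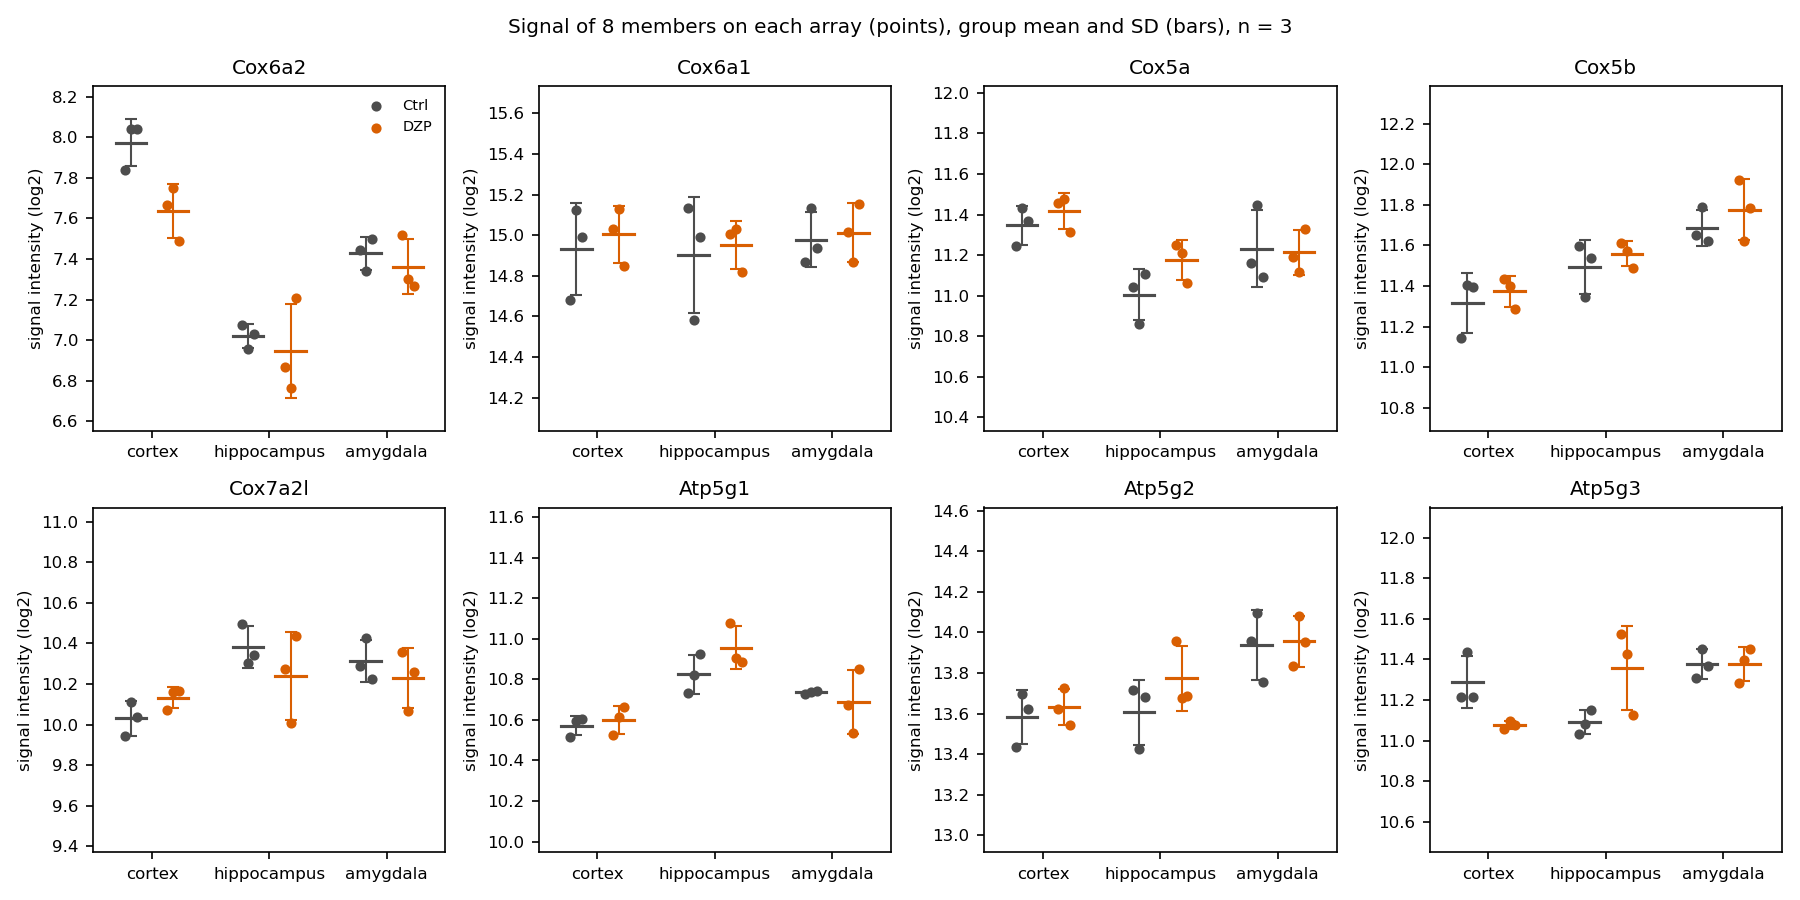
Signal intensity (log2, y axis) of 8 members on each array in cortex, hippocampus and amygdala of Ctrl (grey) and DZP (orange) mice, with group mean and SD (n = 3). Every panel spans the same range, and Cox6a2 shows the widest separation, from 8.04 in Ctrl cortex to 6.76 in DZP hippocampus.

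The other muscle, vascular and testis forms of complex IV were near or below background. Cox7a1 exceeded the negative control mean on 10 of 18 arrays and Cox4i2 on 2, while Cox6b2, Cox7b2, Cox8b and Cox8c did so on 0. Cox6a2 did so on 17. The common forms Cox4i1, Cox6b1, Cox7a2 and Cox8a did so on all 18. None of these forms other than Cox6a2 was called between regions. The nearest was Cox7a2, at -0.28 for amygdala against cortex in DZP mice (adjusted p = 0.067, limma).

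Among the other complex IV members, Cox5a, a nuclear-encoded structural subunit, was 11.24, 11.43 and 11.37 in Ctrl cortex and 11.04, 10.86 and 11.11 in Ctrl hippocampus. The hippocampus arrays were all lower (-0.34 ± 0.10, SE, adjusted p = 0.030, limma). In DZP mice the arrays were also separated, with a difference of -0.24 that was not called (adjusted p = 0.16, limma). Cox7a2l was 9.94, 10.11 and 10.04 in Ctrl cortex and 10.50, 10.30 and 10.34 in Ctrl hippocampus, all higher in hippocampus (0.35 ± 0.11, SE, adjusted p = 0.033, limma), and gave 0.11 in DZP mice with overlap. The call of Cox5a held under 5 of 9 alternatives and was lost without cortex replicate 2 or 3 or hippocampus replicate 1 or 2. That of Cox7a2l held under 4 and was lost with array centring and without cortex replicate 1 or 3 or hippocampus replicate 1 or 3.

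Cox5b, the zinc-binding subunit of complex IV, was called between amygdala and cortex in both treatments. It was 11.14, 11.41 and 11.40 in Ctrl cortex and 11.65, 11.79 and 11.62 in Ctrl amygdala (0.37 ± 0.10, SE, adjusted p = 0.014, limma). It was 11.43, 11.40 and 11.29 in DZP cortex and 11.92, 11.62 and 11.78 in DZP amygdala (0.40 ± 0.10, SE, adjusted p = 0.0077, limma). Amygdala arrays were all above cortex arrays in each treatment. Centred on array medians, neither difference was called, at 0.33 (adjusted p = 0.058, limma) in Ctrl mice and 0.29 (adjusted p = 0.077, limma) in DZP mice. In Ctrl mice the call was also lost without cortex replicate 1, at 0.28 (adjusted p = 0.074, limma), and without amygdala replicate 2, at 0.32 (adjusted p = 0.063, limma).

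Of the 3 genes for the c subunit, whose promoters are printed above, Atp5g1 was highest in hippocampus by its means in both treatments, and Atp5g2 and Atp5g3 in amygdala. Atp5g1 was 10.52, 10.59 and 10.60 in Ctrl cortex and 10.73, 10.82 and 10.92 in Ctrl hippocampus, and 10.53, 10.61 and 10.66 in DZP cortex and 11.08, 10.91 and 10.89 in DZP hippocampus. The groups did not overlap in either treatment. The difference was called in DZP mice, also under 9 of 9 alternatives but by neither form of the methods' test (0.36 ± 0.08, SE, adjusted p = 0.0082, limma), and not in Ctrl mice (0.25 ± 0.08, SE, adjusted p = 0.052, limma).

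Atp5g2 was 13.43, 13.70 and 13.62 in Ctrl cortex and 13.96, 14.10 and 13.75 in Ctrl amygdala, without overlap (0.35 ± 0.11, SE, adjusted p = 0.047, limma). This call held under 2 of 9 alternatives and was lost with array centring or quantile normalisation and without cortex replicate 1, 2 or 3 or amygdala replicate 1 or 2. The second Atp5g2 cluster, on chromosome 15 where RefSeq places the gene, gave 0.46 (adjusted p = 0.017, limma). In DZP mice the first cluster gave 0.32 (adjusted p = 0.056, limma) and the second 0.22 (adjusted p = 0.24, limma). Between amygdala and hippocampus of Ctrl mice the second cluster gave 0.52 (adjusted p = 0.011, limma) and the first 0.33 (adjusted p = 0.084, limma).

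Atp5g3 was called between amygdala and cortex in DZP mice, with 11.06, 11.10 and 11.08 in cortex and 11.29, 11.40 and 11.45 in amygdala and no overlap (0.30 ± 0.09, SE, adjusted p = 0.035, limma). In Ctrl mice the difference was 0.09, with overlap, and the interaction with treatment was not called (adjusted p = 0.76, limma). The call held under 3 of 9 alternatives and was lost with array centring and without cortex replicate 1, 2 or 3 or amygdala replicate 2 or 3. Atp5md, a small subunit of ATP synthase also known as DAPIT, was 13.32, 13.37 and 13.40 in Ctrl cortex and 13.69, 13.86 and 13.55 in Ctrl amygdala, without overlap (0.34 ± 0.10, SE, adjusted p = 0.026, limma), a call that held under 2 of 9 alternatives. It was lost with array centring or quantile normalisation and without cortex replicate 1, 2 or 3 or amygdala replicate 1 or 2.

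In complex I, Ndufa8, a subunit of the intermembrane space, was 11.08, 10.65 and 11.14 in Ctrl hippocampus and 11.35, 11.54 and 11.22 in Ctrl amygdala (0.41 ± 0.12, SE, adjusted p = 0.030, limma). The amygdala arrays were all higher. The call was lost with array centring and without hippocampus replicate 2 or amygdala replicate 1 or 2. Hippocampus replicate 2 was the lowest array, and without it the difference was 0.26 (adjusted p = 0.16, limma). Ndufa10 was 12.03, 11.85 and 11.87 in DZP hippocampus and 11.52, 11.67 and 11.74 in DZP amygdala (-0.27 ± 0.07, SE, adjusted p = 0.021, limma). All amygdala arrays were lower, and the call was lost without hippocampus replicate 1 or amygdala replicate 1. The core subunit Ndufs1 gave -0.22 for amygdala against cortex in Ctrl mice (adjusted p = 0.055, limma), and Ndufv1, which binds NADH, -0.10. Ndufc1 gave 0.28 for hippocampus against cortex in Ctrl mice (adjusted p = 0.053, limma).

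Complex II is shared with the citric acid cycle. Sdhb, its iron-sulfur subunit, was 10.16, 10.31 and 10.17 in DZP cortex and 9.97, 9.96 and 9.91 in DZP amygdala, all lower in amygdala (-0.27 ± 0.07, SE, adjusted p = 0.014, limma), and among the 9 alternatives this call was lost only without cortex replicate 2. It was also lost with only the arrays compared and by either form of the methods' test. In Ctrl mice the difference was -0.04. Sdha, the flavoprotein, had estimates of the other sign, 0.22 in Ctrl mice and 0.24 in DZP mice, and was not called (adjusted p = 0.20 and 0.12, limma). The membrane anchors gave -0.04 (Sdhc) and -0.26 (Sdhd) for amygdala against cortex in Ctrl mice, and neither was called.

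In complex III, Uqcrb, a subunit next to the ubiquinone site, was 12.40, 12.57 and 12.26 in DZP cortex and 12.98, 12.66 and 12.90 in DZP amygdala, all higher in amygdala (0.44 ± 0.13, SE, adjusted p = 0.027, limma). Uqcr10 was 8.88, 8.89 and 8.75 in DZP cortex and 8.50, 8.22 and 8.55 in DZP amygdala, all lower in amygdala (-0.41 ± 0.13, SE, adjusted p = 0.039, limma). In Ctrl mice the same differences were 0.25 and 0.08. The call of Uqcrb held under 3 of 9 alternatives and was lost with array centring or quantile normalisation and without cortex replicate 1 or 3 or amygdala replicate 1 or 3. That of Uqcr10 held under 4 and was lost without cortex replicate 1, 2 or 3 or amygdala replicate 1 or 2. The striatum list differed by 2.17 between the same DZP regions and by 1.06 between the Ctrl regions, and its part in these values was not tested.

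Some further members had large estimates without a call. Between hippocampus and cortex these were Sdhd (-0.21) and Atp5md (0.26) in Ctrl mice and, in DZP mice, Uqcrc1 (-0.34), Ndufa3, a small subunit of complex I (0.24), and Atp5g3 (0.28). Between amygdala and cortex of DZP mice Uqcrc1 gave -0.35 (adjusted p = 0.056, limma). Between amygdala and hippocampus of Ctrl mice they were the complex I subunits Ndufb11 (-0.23) and Ndufv3 (-0.22), Cox7a1 (-0.20) and Atp5g2 (0.33). Between the same regions of DZP mice they were Uqcr10 (-0.39), Atp5g1 (-0.27, adjusted p = 0.050, limma), Ndufb3 (0.26) and Uqcrb (0.25).

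Over all members the regional differences of the 2 treatments, whose arrays are separate, correlated positively, but less than those of all clusters. The sign was the same for 54 of 80 members between hippocampus and cortex, 58 between amygdala and cortex and 56 between amygdala and hippocampus, beside 65.5%, 72.1% and 63.4% of all clusters. Pearson's r across the 80 genes was 0.63, 0.69 and 0.51, and 0.45, 0.69 and 0.44 without Cox6a2. Over all clusters r was 0.80, 0.83 and 0.73. Genes are not independent replicates, so no p is given. Of the 9 calls in Ctrl mice, all had the same sign in DZP mice, and 3 (33.3%) were also called there: Cox6a2 in 2 comparisons and Cox5b in 1. Of the calls of all clusters in Ctrl mice, 94.9% had the same sign in DZP mice and 62.5% were also called there.

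**Figure D4:**
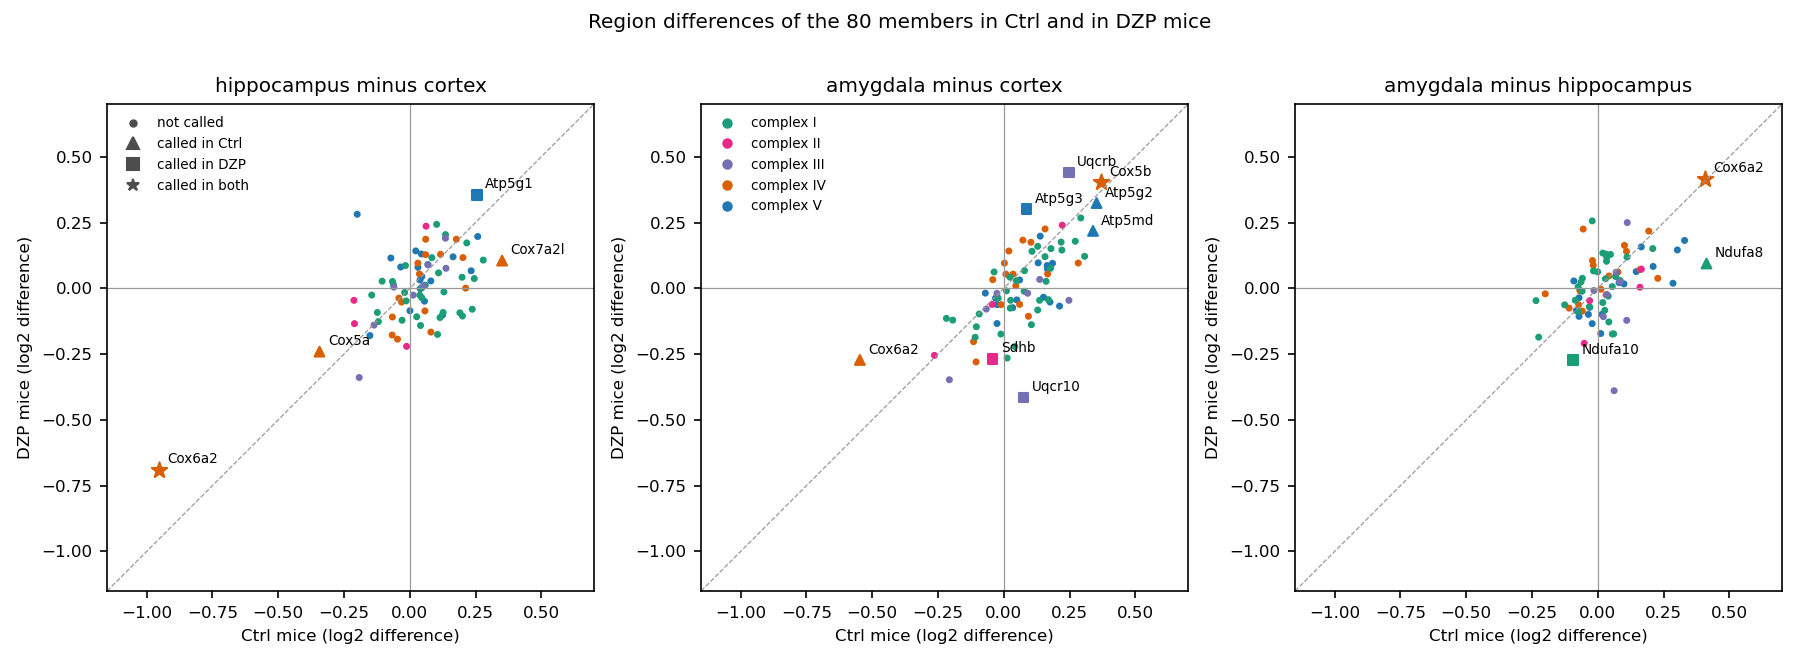
Difference between regions (log2) of the 80 members in Ctrl mice (x axis) and in DZP mice (y axis), 1 panel per pair of regions. Symbols mark members called by limma, which are named, and colours give the complex. Cox6a2 lies apart at -0.95 and -0.69 for hippocampus minus cortex.

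The median log2 difference of the members in Ctrl mice was 0.05 for hippocampus against cortex, 0.07 for amygdala against cortex and 0.03 for amygdala against hippocampus, beside 0.04, 0.03 and -0.00 for all clusters. Between amygdala and cortex in Ctrl mice the median of complex V was 0.13 with 14 of 18 members higher (77.8%), and that of complex I 0.08 with 24 of 32 higher (75%), where 57.6% of all clusters were higher. Centred on array medians these were 0.09 with 13 of 18 and 0.03 with 18 of 32, beside 47.6%, and after quantile normalisation 0.05 with 13 of 18 and 0.06 with 21 of 32, beside 50.1%. In DZP mice the medians were 0.01 with 9 of 18 and -0.01 with 15 of 32, beside 64.1% of all clusters. Centred, they were -0.11 with 4 of 18 and -0.12 with 9 of 32, beside 43.3%.

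Other gene lists of energy metabolism show how the members compare. None had a call for DZP in any region (limma). Between hippocampus and cortex of Ctrl mice 15% of all clusters were called, 8.13% higher and 6.89% lower, and 35% of the clusters with a mean between 8.54 and 11.48. In glycolysis, 5 of 13 genes were called in this comparison (38.5%), 4 of them lower. Ldhb, the lactate dehydrogenase subunit typical of oxidative tissue, gave -1.05 in Ctrl mice (adjusted p = 5.0e-07, limma) and -1.01 in DZP mice. Pfkp gave -0.81 and Pfkl 0.73 in Ctrl mice, both subunits of phosphofructokinase. Of 15 genes of pyruvate dehydrogenase and the citric acid cycle, 4 were lower and 0 higher in Ctrl hippocampus than in Ctrl cortex (26.7%). Idh3a, of isocitrate dehydrogenase, gave -0.33 in Ctrl mice (adjusted p = 0.011, limma) and -0.29 in DZP mice.

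Of 37 cytosolic ribosomal protein genes, 15 (40.5%) were higher in Ctrl hippocampus and 17 (45.9%) in Ctrl amygdala than in Ctrl cortex and 0 were lower, with medians of 0.22 and 0.26. Of all clusters 8.13% and 8.87% were higher. In DZP mice 3 (8.11%) and 13 (35.1%) were higher, beside 6.57% and 13.1% of all clusters. Of 74 mitochondrial ribosomal protein genes, 1 was higher and 5 were lower in Ctrl hippocampus than in Ctrl cortex (8.11%). Neuron markers as a list had medians of -0.30 in Ctrl hippocampus and -0.37 in Ctrl amygdala against cortex, and oligodendrocyte markers 1.12 and 0.30. Their part in these lists was not tested.

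Of 36 assembly factors, 2 (5.56%) were called between Ctrl hippocampus and Ctrl cortex and 5 (13.9%) between Ctrl amygdala and Ctrl cortex, where 15% and 15.5% of all clusters were called, so neither count exceeded the background. Cox20, a chaperone for a core subunit of complex IV, was higher in Ctrl hippocampus (0.45) and Ctrl amygdala (0.57) than in cortex. Atpaf1, an assembly factor of ATP synthase, was lower in both (-0.31 and -0.44). Of 13 regulators, 3 (23.1%) and 2 (15.4%) were called in these comparisons. Ppargc1a, which encodes the coactivator PGC-1α, was lower in Ctrl hippocampus (-0.37, adjusted p = 0.023, limma) and Ctrl amygdala (-0.50, adjusted p = 0.0028, limma). Of 12 partners of the chain, 1 was called between amygdala and hippocampus in each treatment (8.33%, beside 10.3% and 10.7% of all clusters). Atpif1, the inhibitor of ATP synthase, was higher in amygdala than in hippocampus in both treatments, Ctrl mice (0.57) and DZP mice (0.44, adjusted p = 0.013, limma).

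The same arrays were also read at exon level, where a probe set covers an exon region or the junction of 2 exons. The members had 1194 of 719071 probe sets, from 0 to 48 a gene with a median of 11, and the 3 members Atp5md, Atp5mpl and Atp5pb had none. For DZP against Ctrl, 0 probe sets of members were called in each region (limma), beside 0%, 0.0533% and 0.000278% of all probe sets in cortex, hippocampus and amygdala. In hippocampus this count depended on the arrays and on the filter. Without DZP hippocampus replicate 3, 25 probe sets of 19 members were called, 10 higher and 15 lower, which is 2.09% beside 1.77% of all probe sets. With all arrays and only probe sets at or above the median level, 4 of 876 probe sets were called, all lower, in the 3 members Uqcrh, Ndufv2 and Atp5h, which is 0.457% beside 0.381% of all probe sets tested there.

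Between regions, 23 member probe sets were called for hippocampus against cortex in Ctrl mice (1.93%, against 9.03% of all probe sets), 40 for amygdala against cortex (3.35%, against 10.6%) and 22 for amygdala against hippocampus (1.84%, against 7.09%). The counts in DZP mice were 46 (3.85%, against 9.7%), 125 (10.5%, against 16.5%) and 6 (0.503%, against 5.28%). The 125 probe sets belonged to 56 members, with 53 higher (4.44%) and 72 lower (6.03%), beside 7.88% and 8.66% of all probe sets. The split was 47 and 73 when centred (all probe sets 7.68% and 8.79%) and 62 and 70 after quantile normalisation (8.32% and 8.33%).

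In all, 19 probe sets of 14 members were called in Ctrl and in DZP mice for the same pair of regions, each time in the same direction. This is 1.59% of the members' probe sets, beside 10.2% of all probe sets, of which at least 99.6% had the same direction in each pair of regions. The probe sets named here were chosen after their values were seen. Of 7 probe sets of Cox6a2, an exon region was 9.50, 10.18 and 9.62 in Ctrl cortex and 7.93, 7.13 and 7.79 in Ctrl hippocampus. Hippocampus minus cortex was -2.15 in Ctrl mice (adjusted p = 1.4e-05, limma) and -1.41 in DZP mice (adjusted p = 9.5e-04, limma). One Cox6a2 junction gave -1.92 and -1.81. The other junction gave 0.30 and -0.01 and was not called, so the probe sets of the gene did not all differ alike.

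A junction of Atp5g1 was 10.57, 10.75 and 10.33 in Ctrl cortex, 13.57, 13.52 and 13.25 in Ctrl hippocampus and 11.87, 11.68 and 12.08 in Ctrl amygdala. In DZP mice it was 11.32, 10.54 and 11.33, 12.91, 12.87 and 12.75 and 11.94, 11.13 and 12.26. Hippocampus was above the other 2 regions on all arrays of each treatment. Hippocampus minus cortex was 2.90 in Ctrl mice (adjusted p = 1.6e-06, limma) and 1.78 in DZP mice (adjusted p = 2.7e-04, limma), beside 0.25 and 0.36 at gene level. The median over the 15 probe sets of Atp5g1 was 0.35 and 0.38.

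Of 25 probe sets of Ndufv2, a subunit of the NADH-oxidising module of complex I, 2 junctions were lower in amygdala than in cortex in both treatments, while the gene level gave 0.16 and 0.12. The first was 14.35, 14.36 and 14.19 in Ctrl cortex and 12.26, 11.90 and 11.99 in Ctrl amygdala. Amygdala minus cortex was -2.25 in Ctrl mice (adjusted p = 3.0e-04, limma) and -2.92 in DZP mice (adjusted p = 2.6e-05, limma). The second gave -1.84 and -2.86. In hippocampus the first junction was 13.84, 13.67 and 14.12 in Ctrl mice and 11.17, 11.72 and 12.97 in DZP mice. The DZP arrays were all lower, with replicate 3 the nearest to Ctrl. DZP minus Ctrl was -1.93 ± 0.34 (SE, adjusted p = 0.056, limma) with all probe sets, which was not called. The same difference was called at an adjusted p of 0.024 with only the brighter probe sets (limma), and without DZP replicate 3 it was -2.43 (adjusted p = 4.3e-04, limma).

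**Figure D5:**
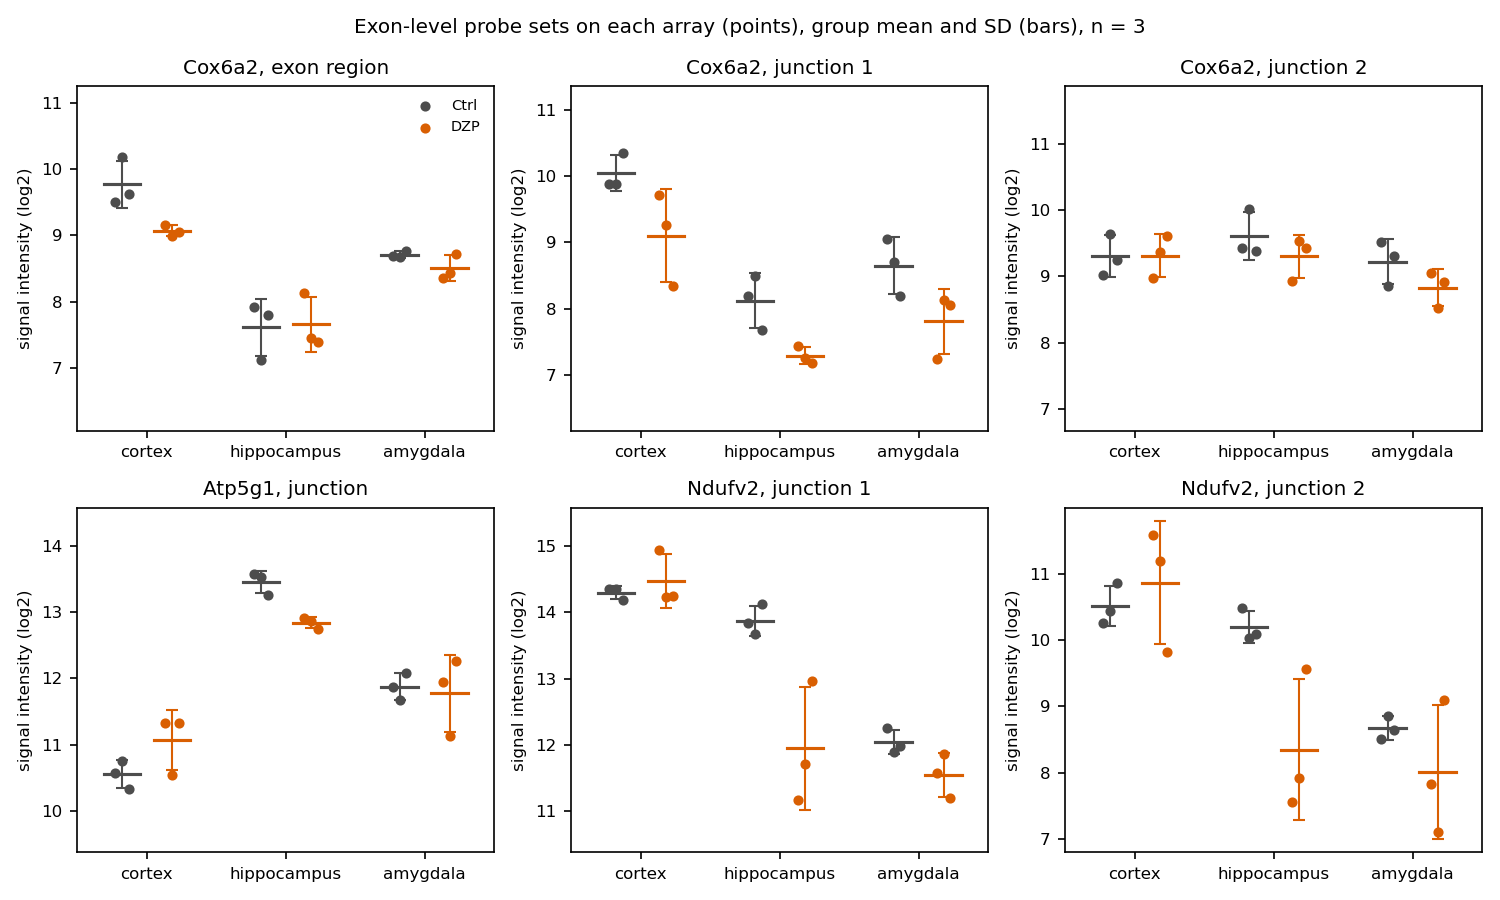
Signal intensity (log2, y axis) of 6 exon-level probe sets of Cox6a2, Atp5g1 and Ndufv2 on each array in cortex, hippocampus and amygdala of Ctrl (grey) and DZP (orange) mice, with group mean and SD (n = 3). Every panel spans the same range, and the Atp5g1 junction is highest in hippocampus on all arrays of each treatment.

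For amygdala against cortex, 16 probe sets of 13 members were called in both treatments, 4 higher and 12 lower, and 9 of the 16 (56.2%) went against the direction of the gene level in Ctrl mice. Of all probe sets 7.33% were called in both treatments, against 1.34% of those of the members, 54.5% of them lower, against 75%, and 5.29% of those with a gene-level value went against it. Among these 9 were 2 junctions and an exon region of Atp5d, the delta subunit of ATP synthase (-1.79, -2.02 and -0.81 in Ctrl mice), an exon region of Ndufa12 (-1.30) and a junction of Atp5g3 (-1.10). Some of the 9 also split the DZP hippocampus arrays, with replicate 3 nearer to cortex. The Ndufa12 exon region was 15.22, 15.13 and 15.18 in Ctrl cortex and 13.71, 13.75 and 14.18 in Ctrl amygdala. In DZP hippocampus it was 13.36, 12.93 and 14.85, and the Atp5g3 junction was 12.43, 12.13 and 13.82. The Atp5d exon region was 7.54, 7.42 and 7.35 there, without such a split. What set replicate 3 apart was not tested. Atp5d also has a second, dimmer cluster at gene level (mean 7.06), which is not counted among the members. For amygdala against cortex it gave -0.40 in Ctrl mice (adjusted p = 0.019, limma) and -0.58 in DZP mice (adjusted p = 0.0014, limma). The cluster used gave 0.15 and -0.03. For hippocampus against cortex the dimmer cluster gave -0.40 (adjusted p = 0.018, limma) and -0.67 (adjusted p = 4.2e-04, limma), and the cluster used -0.15 and -0.18. Neither was called between amygdala and hippocampus. An exon region of Cox5b was higher in both treatments (0.59 and 0.71), and all 8 probe sets of Cox5b had a higher mean in Ctrl amygdala than in Ctrl cortex.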

How the data were processed

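RNA of 18 tissue samples had been hybridised to Affymetrix Mouse Transcriptome Arrays 1.0 from 100 ng of total RNA. The deposited values are log2 signal intensity per transcript cluster and per exon-level probe set, made by the authors with Expression Console 1.4.1 per the submitters' processing notes. Neither the labels nor the methods name the summarization and normalization algorithm, and a scaling step would affect small differences between arrays. Groups came from the sample titles, since the exon-level labels hold agent and age under each other's name. Read depth does not apply to arrays, and 3 arrays per group limit the precision.

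The deposited values were fitted without further normalization in limma 3.58.1 (R 4.3.3) with lmFit and eBayes, as 6 groups over 18 arrays. Control probe sets and clusters were separated first, leaving 65956 clusters. The Benjamini-Hochberg adjustment ran over all clusters or all probe sets, and a call is an adjusted p under 0.05. The average over regions was tested on 6 averages, 1 per treatment and replicate number, in a separate limma fit, although the labels do not say that a number is a mouse. The methods' one-way ANOVA, with p under 0.05 and a fold change of at least 1.5, was run as an alternative on the same values. Other alternatives were array centring, quantile normalization, a filter on dim clusters, array weights, an intensity trend in the prior, the arrays compared alone, the mean of a gene's clusters, the replicate number as a block, and leaving out each array. The fit was tested on simulated data.

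Genes were named by rule. These were all called members, the 3 with the largest estimates in a direction where fewer than 3 were called in it, the isoform sets of complex IV and ATP synthase, the Sdh genes, Ndufs1 and Ndufv1, and at most 3 genes of a list. Members and gene lists were chosen with earlier results of these data known. The 7 pathway lists and the cell type and region markers are counted by symbol on clusters with a single symbol. Promoter sequences are from RefSeq on GRCm38.p6, matched by symbol for 65 of the 80 members. Figures were drawn with matplotlib 3.10.9 in Python 3.11.15.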

Additional observations from a re-analysis of the deposited data

How the results depend on the processing

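For DZP against Ctrl the count of members called was 0 in each region, for the average of regions and for the interactions under every alternative run. Leaving out 1 array moved the member medians between -0.015 and 0.052 in cortex, -0.030 and 0.017 in hippocampus and -0.068 and 0.035 in amygdala. The exon-level count stayed at 0 in cortex and amygdala and ran from 0 to 25 in hippocampus. It was 25 without DZP hippocampus replicate 3 (1.77% of all probe sets), and 4 with only probe sets at or above the median level (0.381% of all).

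Counts of members called between regions depended on the processing, and the cause was not tested. In brackets stands the share of all clusters called in the same fit. For hippocampus against cortex in Ctrl mice the count of 3 (15%) became 5 with only clusters at or above the median level (30.1%), 5 with array weights (18.4%) and 1 by the methods' ANOVA with its fold criterion (7.11%). In DZP mice the count of 2 (12.3%) became 5 with the brighter clusters (24.2%), 1 by that ANOVA (6.22%) and 0 by the ANOVA with Benjamini-Hochberg adjustment (4.94%). For amygdala against cortex in Ctrl mice the count of 4 (15.5%) became 1 centred on array medians (13.7%), 1 with only the arrays compared (11.7%), 0 by the ANOVA with its fold criterion (7.2%) and 1 by the adjusted ANOVA (6.84%). In DZP mice the count of 5 (20.4%) became 9 when centred (17.7%), 9 after quantile normalization (19.1%), 10 with the brighter clusters (33.1%), 9 with array weights (22.7%), 0 by the ANOVA with its fold criterion (8.51%) and 1 by the adjusted ANOVA (7.35%). For amygdala against hippocampus in Ctrl mice the count of 2 (10.3%) became 1 when centred (9.4%), 1 with only the arrays compared (7.73%), and 0 by the ANOVA with its fold criterion (5.31%) and by the adjusted ANOVA (2.14%). In DZP mice the count of 2 (10.7%) became 0 with only the arrays compared (8.05%), and 0 by the ANOVA with its fold criterion (5.88%) and by the adjusted ANOVA (2.13%).

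Leaving out 1 array gave 1 to 3 calls for hippocampus against cortex in Ctrl mice (11.4% to 13.3% of all clusters), lowest without cortex replicate 3. It gave 2 to 4 for amygdala against cortex (12% to 14.2%), with 2 without any 1 cortex array or without amygdala replicate 1 or 2. It gave 0 to 2 for amygdala against hippocampus (7.76% to 9.16%), with 0 without hippocampus replicate 2 or amygdala replicate 1. In DZP mice it gave 2 to 7 for hippocampus against cortex (9.83% to 11.5%), with 7 without hippocampus replicate 3, where 11.5% of all clusters were called. For amygdala against cortex it gave 2 to 6 (14.1% to 18.9%), with 2 without cortex replicate 1 or 2 and 3 without cortex replicate 3 or amygdala replicate 1 or 2. For amygdala against hippocampus it gave 0 to 3 (7.48% to 10.5%), with 0 without hippocampus replicate 1 or amygdala replicate 1. The member medians in Ctrl mice ran from 0.019 to 0.081, 0.043 to 0.11 and -0.033 to 0.066 in the same order.

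With the replicate number as a block, the counts for amygdala against hippocampus fell to 0 in Ctrl mice (10.1% of all clusters) and 0 in DZP mice (10.7%). The share of all clusters was thus nearly the same as without the block. The counts of the other comparisons stayed within 1.5 times. For hippocampus and amygdala against cortex they were 3 and 3 in Ctrl mice (14.7% and 15.2%), and 3 and 5 in DZP mice (12.3% and 20.1%). The single calls lost with the block were those of Cox5a between hippocampus and cortex and of Atp5g2 between amygdala and cortex in Ctrl mice, of Uqcr10 between amygdala and cortex in DZP mice, and of Cox6a2, Ndufa8 and Ndufa10 between amygdala and hippocampus. The labels do not say whether a number marks a mouse. Deviations from group means of same-numbered arrays correlated from -0.098 to 0.20 between treatments and from -0.16 to 0.42 between regions, with r above 0.1 in 2 of 9 and in 6 of 18 pairs. Arrays of different numbers were not compared in this way, so these values cannot decide whether the numbers are pairs. In the main fit they were not taken as pairs. The average over regions rests on these numbers, and the same contrast fitted on the 18 arrays also gave 0 calls. Of the 18 calls between regions under array centring, quantile normalization, the mean of a gene's clusters, the block and each omitted array, 112 values stayed called, 68 did not and 0 changed sign. For every called member but Atp5g2 the mean of a gene's clusters repeats the values used, so those of the 112 were fixed in advance. Under the other 6 alternatives, the brighter clusters, array weights, the intensity trend, only the arrays compared and both ANOVA forms, 68 stayed called, 40 did not and 0 changed sign. Of the values of other named members under the first set of alternatives, 22 became called, none of them for DZP against Ctrl. Another 356 stayed within the pooled within-group SD of the gene from the main estimate, and 2 moved further. How often all clusters became called in this way is not given here.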
